A study of Mus musculus with 12 samples.

Results

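The occupancy of RNA polymerase II (RNA-Pol2) at annotated promoters was mapped in the wild type embryonic mouse forebrain and set against the IgG library of the same genotype. The pair was chosen by its labels, genotype wild type and target RNA-Pol2 or IgG, and makes up 2 of the 12 libraries of the series. All libraries came from untreated C57BL/6 forebrain of E12.5 embryos, of wild type or of a genotype labelled EedcKO, named for the Polycomb subunit Eed. RNA-Pol2, IgG, H3K27ac and H3K27me3 were measured by CUT&Tag, in which an antibody tethers a transposase that cuts the DNA beside its target; an IgG with no target records where the transposase cuts untethered. With 1 library of each kind no comparison has a replicate, and no p-value is printed. The number of embryos in a library, the driver of the Eed deletion and the form of RNA-Pol2 that the antibody binds are not named in the labels.

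RNA-Pol2 transcribes all protein-coding genes and most long non-coding RNAs. At many animal promoters it starts, pauses shortly downstream and waits for elongation factors, so a promoter can hold much polymerase without a matching amount of finished RNA. In the forebrain of this stage, dividing radial progenitors line the ventricle and the first neurons leave them. Regulators of other body regions are held silent in such tissue largely by Polycomb complexes, which deposit H3K27me3, while H3K27ac marks active promoters and enhancers.

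The promoter sequences that frame the results are the 250 bases before the RefSeq start (assembly GRCm38.p6). The first 3 are from strongly occupied promoters: Phykpl (chr11:51584531-51584780, plus strand), Rmi1 (chr13:58401998-58402247, plus strand) and Polg2 (chr11:106779538-106779787, minus strand). Sox2 (chr3:34649745-34649994, plus strand) stands for the forebrain regulators. Rspo1 (chr4:124986180-124986429, plus strand) and Hoxd9 (chr2:74697513-74697762, plus strand) had counts no higher than their IgG after scaling. Capitals mark matches on either strand to the GC box GGGCGG, the box known as CCAAT, the ETS-type core CCGGAA, the box known as TATAAA, or the NRF1 site, none of which overlap in the sequences shown.
Phykpl: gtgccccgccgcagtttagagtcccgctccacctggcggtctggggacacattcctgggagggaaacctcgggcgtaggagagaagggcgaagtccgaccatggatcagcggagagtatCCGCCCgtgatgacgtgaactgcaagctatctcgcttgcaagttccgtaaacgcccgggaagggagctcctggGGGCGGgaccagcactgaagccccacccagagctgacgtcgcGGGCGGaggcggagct
Rmi1: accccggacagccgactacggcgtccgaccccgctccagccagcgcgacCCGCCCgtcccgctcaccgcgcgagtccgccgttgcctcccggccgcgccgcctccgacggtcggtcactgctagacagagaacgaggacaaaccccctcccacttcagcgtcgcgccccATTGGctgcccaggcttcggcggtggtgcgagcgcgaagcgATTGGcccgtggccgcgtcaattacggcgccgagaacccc
Polg2: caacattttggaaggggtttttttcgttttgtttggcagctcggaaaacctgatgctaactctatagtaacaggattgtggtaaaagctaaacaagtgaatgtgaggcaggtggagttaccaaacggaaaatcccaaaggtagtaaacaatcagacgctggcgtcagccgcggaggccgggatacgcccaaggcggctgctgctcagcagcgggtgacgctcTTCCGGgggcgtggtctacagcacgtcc
Sox2: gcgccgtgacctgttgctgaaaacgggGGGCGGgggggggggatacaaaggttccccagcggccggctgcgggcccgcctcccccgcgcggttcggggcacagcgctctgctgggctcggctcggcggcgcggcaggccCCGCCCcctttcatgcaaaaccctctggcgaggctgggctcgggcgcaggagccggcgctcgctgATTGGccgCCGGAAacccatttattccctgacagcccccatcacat
Rspo1: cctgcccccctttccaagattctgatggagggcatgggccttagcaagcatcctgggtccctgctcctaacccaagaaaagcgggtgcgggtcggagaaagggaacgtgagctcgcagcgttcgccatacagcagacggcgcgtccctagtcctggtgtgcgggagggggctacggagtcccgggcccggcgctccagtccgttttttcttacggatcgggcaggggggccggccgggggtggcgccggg
Hoxd9: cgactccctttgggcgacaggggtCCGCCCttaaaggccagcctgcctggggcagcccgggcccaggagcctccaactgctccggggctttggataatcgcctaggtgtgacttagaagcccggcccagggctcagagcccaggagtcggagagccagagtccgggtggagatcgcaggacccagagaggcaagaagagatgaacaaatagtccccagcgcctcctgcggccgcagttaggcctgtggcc
Phykpl held 3 GC boxes, Rmi1 1 GC box and 2 CCAAT boxes, and Polg2 1 CCGGAA match. Sox2 held 4 matches to 3 of the motifs, Hoxd9 held 1 GC box, and Rspo1 held none of these letters. Of the 32851 promoters in the RefSeq table, counted over the same letters on both strands, 32.7% held the GC box, 33.8% the CCAAT box, 12.03% the ETS core, 12.4% the TATA box and 0.782% the NRF1 site. A comparison of base composition between occupied and unoccupied promoters is void, because only 66.9% of the protein-coding genes matched a promoter of the table within 500 bases of their window's centre.

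Reads were counted in 55385 windows, nearly all of 2 kb and centred on an annotated start, with 2482297 reads in the RNA-Pol2 library and 1412310 in the IgG library. These totals cover promoter windows and are not the depth of the libraries. The median window held 38 RNA-Pol2 and 25 IgG reads, that is 15.3 and 17.7 RPM (reads for each 1000000 promoter reads of the library). RNA-Pol2 was the more uneven of both: its 99th percentile was 4.26 times its median, against 2.44 times for IgG. A further 3095 windows held no read in either library. Windows on chromosome X had medians of 6.04 RPM for RNA-Pol2 and 8.50 RPM for IgG, against 16.5 and 18.4 RPM on the autosomes, so both libraries were lower there. Of the neural markers, Sox2 (80 RNA-Pol2 and 8 IgG reads) and Tubb3 (100 and 17) stood over IgG. Pax6 (39 and 16 reads) and Dcx (25 and 9 reads) had intervals that included equality.

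The ratio of RNA-Pol2 to IgG was taken as log2 of the RPM values, each with 1 RPM added, and a ratio of at least 1 or at most -1 on this scale is called 2-fold here. Its median over all windows was -0.16, with 5% of windows below -1.33 and 5% above 1.48. RNA-Pol2 was at least 2-fold above IgG in 5955 windows (10.8%) and at least 2-fold below it in 7050 (12.7%). When medians were set equal in both libraries, which shifts the ratios by 0.15, these counts were 7258 and 4855. Among 21230 protein-coding genes, taken with 1 window each, 4242 (20%) were at least 2-fold above IgG and 1615 (7.61%) at least 2-fold below, and the median ratio was 0.13. Of other gene types, 8.27% of 4935 long non-coding RNA genes, 7.73% of 1048 snoRNA genes, 11.1% of 1188 miRNA genes and 1.87% of 8304 pseudogenes were at least 2-fold above IgG, and 10.8%, 13.8%, 7.32% and 21.5% of them, in the same order, at least 2-fold below. Low counts set the precision of a single gene. The exact 95% interval of the ratio covers counting error only, since there is 1 library of each kind. The reads carry no molecular identifiers, so copies of 1 fragment may be counted more than once and the interval may be too narrow. Its median width was 1.45 on the log2 scale. The interval lay wholly above equality for 6317 protein-coding genes (29.8%) and wholly above 2-fold for 1458.

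The choice of IgG library changed these counts. Against the IgG library labelled EedcKO, wild type RNA-Pol2 was at least 2-fold above in 1622 protein-coding genes, and 1155 of the 4242 genes (27.2%) were among them. Over all windows the rank correlation (Spearman, 55385 windows of the same libraries, a description) of wild type RNA-Pol2 with IgG was 0.50 for the wild type IgG and 0.77 for the EedcKO IgG. At promoters with an H3K27ac summit, the median level was 17.0 RPM in the wild type IgG and 25.6 RPM in the EedcKO IgG. Without one, the medians were 18.4 and 19.2 RPM. The part of this difference in each ratio given here was not tested, and values against the EedcKO IgG are set beside the gene groups.

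The 15 strongest promoters over IgG, ranked by the lower bound of the interval, belonged to genes of varied function and led with Phykpl. In 7 of the 15, among them Rmi1, Supt16, Cox20, Safb and Ep400, the window overlapped another annotated window. Their reads cannot be given to the named gene alone. Phykpl, a lyase that breaks down phosphohydroxylysine, held 564 RNA-Pol2 and 18 IgG reads, 17.8-fold in RPM (log2 ratio 4.05, 95% interval 3.48 to 4.92). Rmi1, part of the complex that resolves recombination intermediates with the Bloom helicase, held 288 and 8 reads (4.13, 3.36 to 5.58). Its window overlaps that of Hnrnpk, an abundant RNA-binding protein transcribed the other way, which held 164 and 7 reads. Bnip3l, a receptor for the removal of mitochondria, held 195 and 5 reads (4.13, 3.22 to 6.11). Polg2, the accessory subunit of the mitochondrial DNA polymerase, held 421 and 17 reads (3.71, 3.12 to 4.61). Supt16, the large subunit of the histone chaperone FACT that travels with elongating polymerase, held 110 and 2 reads (4.23, 3.08 to 8.03). The IgG counts of Bnip3l and Supt16 are so small that their ratios have wide upper bounds. Among the next ranks were Mnt, a repressor that pairs with Max (279 and 12 reads), Cox20, an assembly factor of cytochrome c oxidase (301 and 14), and Safb, a nuclear RNA-binding protein (197 and 8). Ep400, a chromatin remodeller, held 216 and 11 reads. Egr1, the immediate early transcription factor, held 284 and 16. Bex3, an X-linked gene expressed in brain, closed the 15 with 41 reads against 0, at least 7.78-fold in RPM when 3 reads are allowed in the IgG library.

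**Figure D1:**
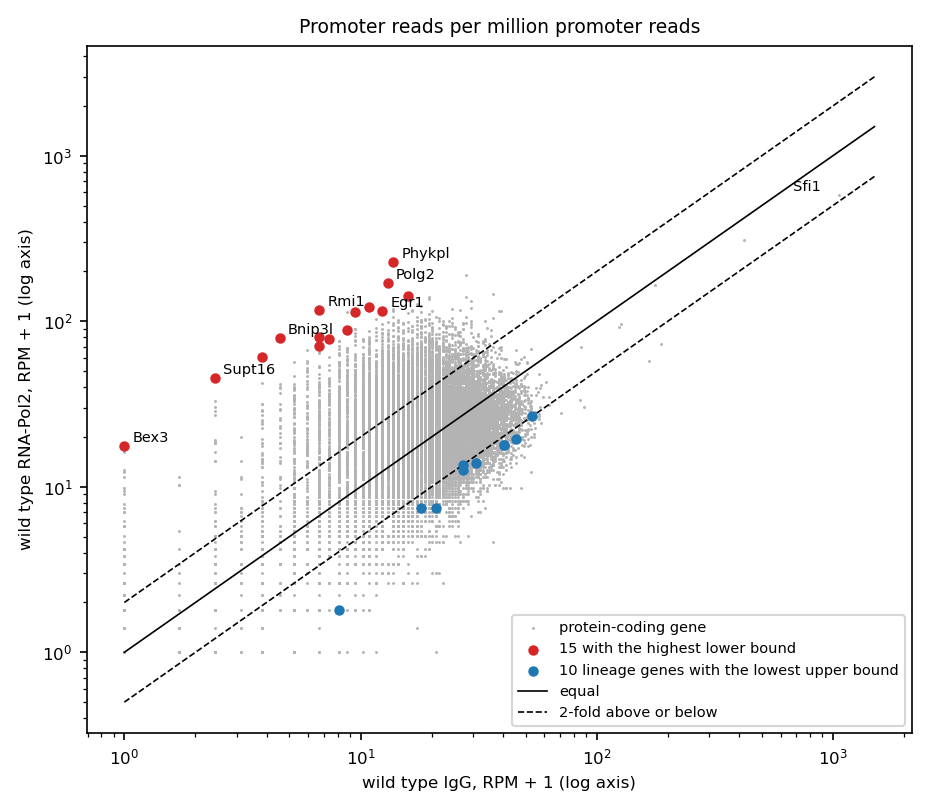
RNA-Pol2 against IgG level (RPM) in wild type forebrain for 21230 protein-coding genes, both with 1 RPM added, on log axes; the solid line marks equal values and the dashed lines 2-fold differences. The 15 genes with the highest lower bound (red) lie far above the upper dashed line at low IgG. The 10 lineage genes with the lowest upper bound (blue) lie close to or below the lower one, and Sfi1 is high in both libraries.

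These 15 genes were chosen by the ratio in these 2 libraries, so their size is a description. In the other genotype, whose libraries are separate, RNA-Pol2 was at least 2-fold above its own IgG at 15 of 15, for example 1190 against 75 reads at Phykpl, 688 against 44 at Rmi1 and 940 against 27 at Polg2. This was the case for 21.4% of all protein-coding genes in that pair. In all 15 the EedcKO IgG level was higher than the wild type IgG level, with medians of 24.3 and 6.37 RPM. The ranking itself favours genes with few wild type IgG reads. The EedcKO IgG level was also the higher in 12214 of 21230 protein-coding genes, and in 3810 of the 4613 with an H3K27ac summit. Against the EedcKO IgG the wild type ratios were from 0.84, for Supt16, to 3.22, for Polg2, and 14 of 15 were at least 1. The authors' summit list placed an RNA-Pol2 summit in 13 of the 15 windows, the exceptions being Egr1 and Bex3. Egr1 had its summit at 1211 bases downstream of the start, just past the window.

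**Figure D2:**
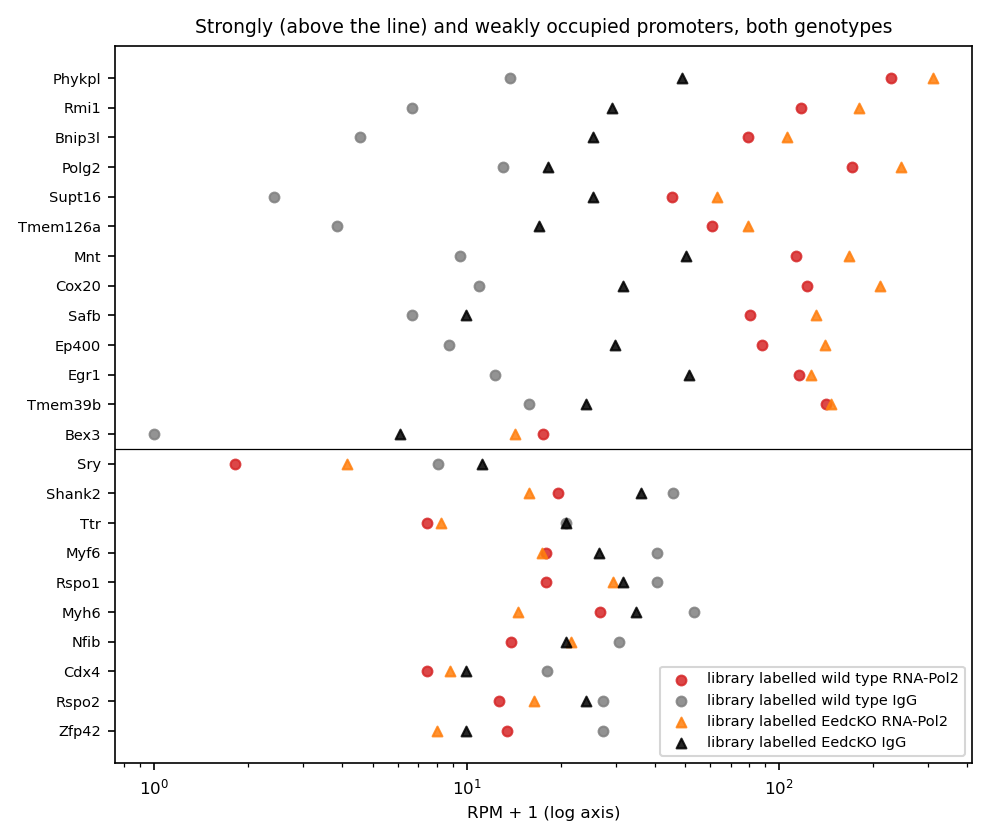
Promoter level in RPM, with 1 RPM added, on a log axis, for 13 of the 15 protein-coding promoters with the highest lower bound (above the line) and the 10 lineage promoters with the lowest upper bound (below it), 1 point per library. Both RNA-Pol2 libraries exceed both IgG libraries at all 13 upper genes, and the wild type IgG (grey circles) lies left of the EedcKO IgG (black triangles) at each of them.

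Ranked by RNA-Pol2 reads alone, 9 of the 10 highest named protein-coding promoters were at least 2-fold above IgG. After Phykpl came Zfp651, a zinc finger gene (468 RNA-Pol2 and 38 IgG reads, log2 ratio 2.76), and Polg2. Pygm, the muscle glycogen phosphorylase, held 359 and 50 reads (2.00), and Romo1, a small mitochondrial membrane protein, 343 and 26 (2.84). Tarbp2, a Dicer partner in microRNA processing, held 345 and 38 (2.33). The exception was Sfi1, a centrosome gene, with 1433 RNA-Pol2 and 1494 IgG reads and a ratio of -0.87. Windows chosen after their values were seen had the same property of high counts in both libraries: Gm42418 with 3012 and 1315 reads, AY036118 with 2707 and 1180, and the pseudogene Fau-ps2, close to Sfi1, with 1548 and 1605.

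Many of the strongest promoters lie close to the end of another gene. Polg2 starts 819 bases from the 3′ end of Ddx5, an abundant RNA helicase whose own promoter held 185 RNA-Pol2 and 10 IgG reads. Cox20 starts 1979 bases from the 3′ end of Hnrnpu (89 and 11 reads at its promoter), and Romo1 3201 bases from that of the splicing factor gene Rbm39 (172 and 19). Phykpl lies 831 bases from the end of Col23a1, whose promoter held 67 and 33 reads, a ratio of 0.20. The 3′ end of another protein-coding gene lay within 5 kb of the start for 6 of the 15 genes, for 41 of the first 100 by lower bound (41.0%) and for 31.6% of the first 1000. Over all 18497 genes ranked this share was 15.4%. Reads of polymerase that runs on past a gene's end and reads of the next promoter cannot be told apart in these windows.

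Of the 32 gene lists, the hnRNP and SR splicing factors had the highest median RNA-Pol2 ratio. Of 33 hnRNP and SR splicing factors, 27 were at least 2-fold above IgG (20% of all protein-coding genes were) and none 2-fold below. Their median ratio was 2.05, with a median of 103 RNA-Pol2 reads against 54 over all protein-coding genes and 18 IgG reads against 25. Hnrnpk led with 3.49, followed by Srsf2, a splicing regulator with 167 and 10 reads (3.08), and Srsf10 with 76 and 4 (3.04). Hnrnpm (39 and 25 reads, -0.16) and Ptbp2, the neuronal relative of the splicing repressor Ptbp1 (31 and 21, -0.23), were at the lower end. Against the EedcKO IgG the list's median was 0.97 and 16 of 33 were at least 2-fold above.

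The other lists of genes in general use had medians from 0.64 to 1.60. Of 25 chaperones, 19 were at least 2-fold above IgG (median ratio 1.60): the endoplasmic reticulum chaperones Calr (133 and 10 reads) and Hspa5 (131 and 12) and the constitutive heat shock protein Hspa8 (170 and 14) led. Of 26 translation factors, 16 were (1.46), led by the helicase genes Eif4a1 (159 and 8) and Eif4a2 (122 and 7). Of 28 immediate early genes, which answer signals within minutes and are a textbook case of paused polymerase, 20 were (1.42). Egr1, Jund (186 and 12 reads) and Ier2 (116 and 8) led that list, while Egr3 (56 and 27) and Atf3 (49 and 31) had ratios of 0.23 and -0.15. Of 22 cytoskeleton genes, 15 were (1.37), with Actb at 219 and 12 reads. Of 32 elongation and pausing factors, 19 were (1.21), with Ell, a component of the super elongation complex, at 218 and 20 reads. Of 31 PRC2 and PRC1 subunits, 16 were (1.01): Rbbp4, a histone-binding subunit, held 191 and 13 reads, and Cbx8 held 141 and 15 although its window also held 1086 H3K27me3 reads.

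Ribosomal protein and histone genes, whose RNAs are abundant in dividing cells, had lower medians than the splicing factors. Of 49 cytosolic ribosomal protein genes, 21 were at least 2-fold above IgG, with a median of 0.95 and values from -0.52 for Rps14 to 3.04 for Rps19. Of 53 replication-dependent histone genes listed, 26 were not found among the windows. Of the 27 found, 13 were above (median 0.97) and 1, H2bc6, was below. Their windows are crowded, since histone genes lie next to each other, and counts were low: H2ac18 held 29 reads against 0, at least 5.50-fold in RPM. Of 32 cell cycle and replication genes, 14 were above (0.90), of 28 respiration and glycolysis genes 12 (0.85), and of 24 lncRNA and snoRNA host genes 7 (0.67), led by Gas5 with 189 and 16 reads. Of 12 subunits of RNA-Pol2 itself, 3 were (0.64), a share near the 20% of all protein-coding genes. The catalytic subunit gene Polr2a held 89 and 5 reads, a ratio of 3.02, and -0.047 against the EedcKO IgG. Against the EedcKO IgG the medians of the 13 lists in general use were from 0.01, for the RNA-Pol2 subunits, to 0.97, and 7.64% of all protein-coding genes were 2-fold above. So were 6 of 25 chaperones, 11 of 26 translation factors, 5 of 28 immediate early genes and 3 of 22 cytoskeleton genes. Of the elongation and pausing factors 8 of 32 were, of the PRC2 and PRC1 subunits 6 of 31, of the ribosomal protein genes 9 of 49 and of the histone genes 5 of 27. For the cell cycle list it was 8 of 32, for respiration and glycolysis 2 of 28, for host genes 3 of 24 and for RNA-Pol2 subunits 1 of 12.

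**Figure D3:**
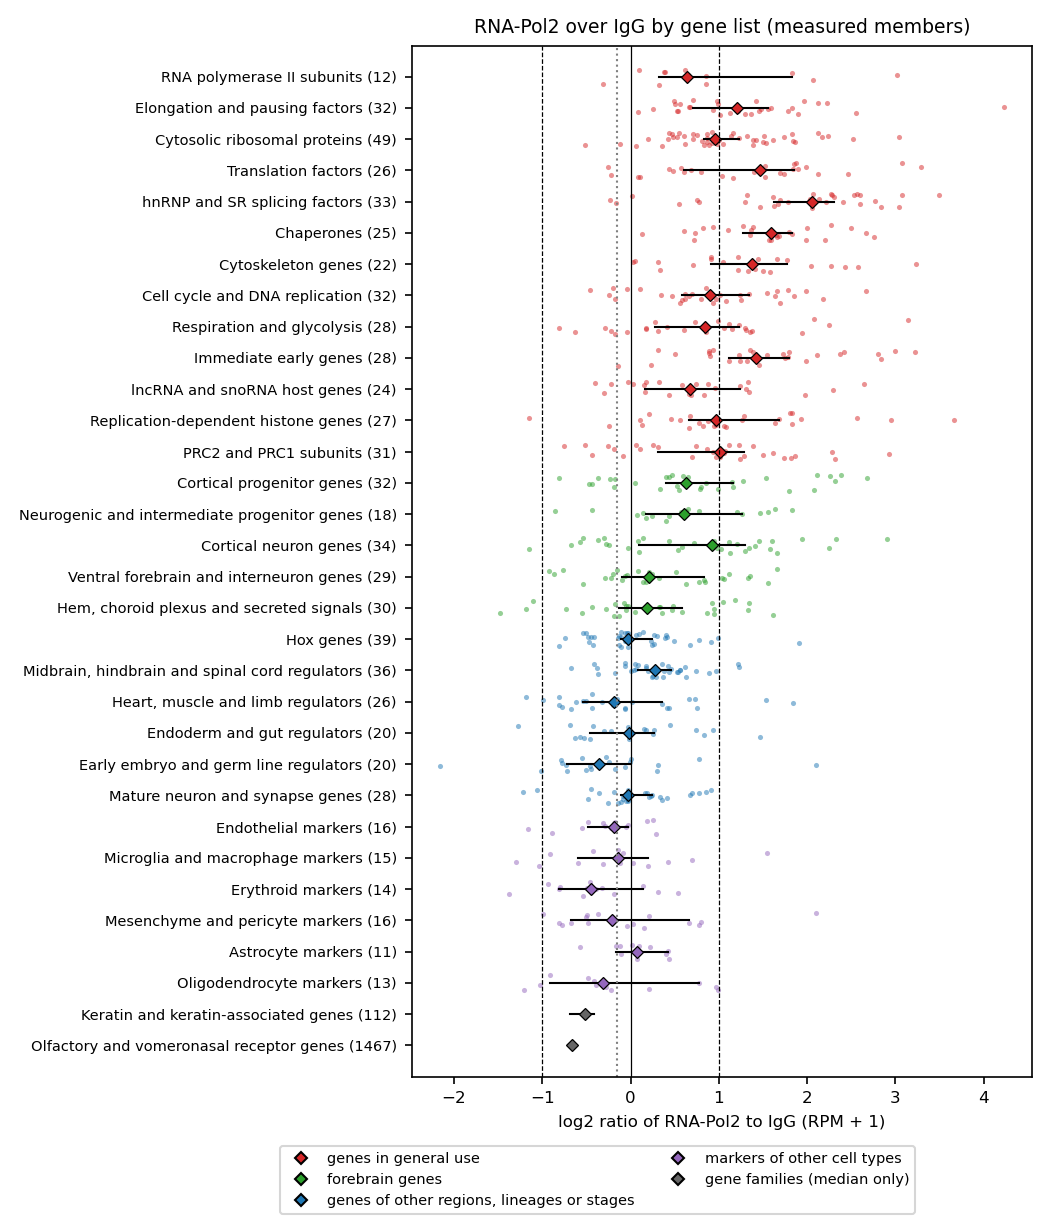
Log2 ratio of RNA-Pol2 to IgG in wild type forebrain by gene list; small points are genes, diamonds are medians with 95% order-statistic intervals across genes, numbers in brackets are measured members, dashed lines mark 2-fold and the dotted line the median of all windows (-0.16). Medians run from 0.64 to 2.05 for genes in general use, from 0.19 to 0.93 for forebrain genes, from -0.36 to 0.28 for genes of other regions, lineages or stages and from -0.44 to 0.07 for markers of other cell types.

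Forebrain lists had medians from 0.19 to 0.93, which overlap those of the genes in general use at the upper end and those of other lineages at the lower. Of 34 cortical neuron genes, 15 were at least 2-fold above IgG (median 0.93), where 20% of all protein-coding genes were. Cux1, an upper-layer transcription factor, held 95 and 6 reads (2.90), Pou3f1 63 and 6 (2.33) and Sox11, a driver of neuronal maturation, 101 and 11 (2.25). At the other end, Nfib, a regulator of neuronal and glial differentiation, held 32 and 42 reads (-1.15), and Stmn2 54 and 50 (-0.68). Of 32 cortical progenitor genes, 11 were above (0.63). Nr2f1, which patterns cortical areas, held 47 and 3 reads (2.67), Cdh2, the N-cadherin of radial glia, 139 and 14 (2.38), and Sox2, the progenitor transcription factor, 80 and 8 (2.32). Emx2, another patterning gene, held 16 and 17 reads (-0.81), and Fabp7, a radial glia gene, 45 and 36 (-0.47).

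Of 18 neurogenic and intermediate progenitor genes, 6 were at least 2-fold above IgG (median 0.60). The zinc finger factor Insm1 held 60 and 10 reads and the Notch ligand Dll1 144 and 27 (1.55), while Neurod4 held 28 and 30. Of 29 ventral forebrain and interneuron genes, 7 were above (0.21). Sp9 (72 and 12 reads) and Dlx5 (67 and 12) led, and Nkx2-1, which specifies the medial ganglionic eminence, held 34 and 38 (-0.93) with 1342 H3K27me3 reads. Of 30 genes of the hem, the choroid plexus and secreted signals, 5 were above, with Fgf18 at 166 and 30 reads, and 3 were below (median 0.19). The shares above IgG in the ventral and hem lists are near the 20% of all protein-coding genes. Against the EedcKO IgG, between 0 and 4 members of each of these 5 lists were 2-fold above and the medians were from -0.02 to 0.39.

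Few regulators of other body regions, lineages and stages were 2-fold above IgG. Their lists had medians from -0.36 to 0.28, beside -0.16 over all windows and 0.13 over protein-coding genes. Of all protein-coding genes 20% were 2-fold above and 7.61% 2-fold below. A low count in tissue cannot tell few cells with polymerase from little polymerase per cell. Of 39 Hox genes, 1 was at least 2-fold above IgG and none below (median -0.03): Hoxa3, with 40 and 5 reads and 1380 H3K27me3 reads in the window. Hoxd9, whose sequence is shown above, held 40 RNA-Pol2, 32 IgG and 1652 H3K27me3 reads. Of 36 midbrain, hindbrain and spinal cord regulators, 2 were above, among them Tlx3 (98 and 23 reads), and the median was 0.28. Of 26 heart, muscle and limb regulators, 2 were above, the cardiac factor Gata6 (82 and 12) and the creatine kinase gene Ckm (76 and 14), and 1 was below (-0.19). The Ckm window overlaps that of Klc3, and the Gata6 window that of 1010001N08Rik. None of these 26 was 2-fold above the EedcKO IgG, and the ratio of Gata6 to it was -0.061. Of 20 endoderm and gut regulators, 1 was above, Ttf1 (53 and 10), a symbol that in the mouse names the termination factor of RNA polymerase I, and 1 was below, Cdx4 (median -0.02). Of 20 early embryo and germ line regulators, 1 was above, Tbx6, a mesoderm factor with 136 and 17 reads and an RNA-Pol2 summit, and 2 were below (median -0.36). Of 28 mature neuron and synapse genes, none was above and 2 were below, Vip (24 and 30) and Shank2. Signs of medians this close to 0 depend on the scaling: at the same library median those of the Hox, endoderm and mature neuron lists were 0.11, 0.12 and 0.12. With the EedcKO IgG as control the medians of the 6 lists were from -0.40 to -0.025, the latter for the midbrain, hindbrain and spinal cord list, with between 0 and 2 members of each 2-fold above.

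The 10 lineage genes with the lowest upper bound were the weakest relative to the wild type IgG. The ranking favours genes with many wild type IgG reads. Their median was 28.0 RPM in that library, against 17.7 RPM over protein-coding genes. In the EedcKO IgG it was 21.4 RPM, and 1 of the 10 was higher there than in the wild type IgG. Their median RNA-Pol2 level was 12.7 RPM, against 21.8 RPM over protein-coding genes. Sry, the Y-linked sex determination gene, held 2 RNA-Pol2 and 10 IgG reads. Shank2, a postsynaptic scaffold, held 46 and 63 reads (-1.22), Ttr, the choroid plexus transthyretin, 16 and 28 (-1.48), and Myf6, a muscle factor, 42 and 56 (-1.18). The Wnt agonist Rspo1 held 42 and 56 (-1.18), and Myh6, the atrial myosin, 64 and 74 (-1.0). The 64 reads of Myh6 exceed the median of 54 RNA-Pol2 reads over protein-coding genes. Nfib, Cdx4 (16 and 24), Rspo2 (29 and 37) and Zfp42 (31 and 37) completed them. Of the 10, Rspo1 and Cdx4 had an H3K27me3 summit, where 94 of the 310 lineage genes did. Rspo2 held 311 H3K27me3 reads without a summit, near the 318 of Cdx4. Nfib had an H3K27ac summit with 75 H3K27ac reads. In the EedcKO pair 9 of the 10 ratios were below 0, with Nfib at 0.05. The median EedcKO ratio of the 14477 protein-coding genes with neither an H3K27ac nor an H3K27me3 summit was -0.28. Against the EedcKO IgG the wild type ratios of the 10 were from -2.64 to 0.44, and Zfp42 was the one above 0 with that value.

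Markers of other cell types had list medians near or below IgG. None of 16 endothelial, 14 erythroid, 11 astrocyte or 13 oligodendrocyte markers was at least 2-fold above IgG, with medians of -0.19, -0.44, 0.07 and -0.31. Of all protein-coding genes 20% were. The oligodendrocyte markers Cnp (118 and 33 reads, 0.99, with an RNA-Pol2 summit) and Nkx2-2 (61 and 17, 0.97) were just short of it. With a pseudocount of 0.25 RPM, 2 of the 13 oligodendrocyte markers were 2-fold above. With 1 RPM, 1 of 15 microglia and macrophage markers was, Cd68 (118 and 22 reads), and of 16 mesenchyme and pericyte markers 1, Prrx1 (61 and 7). The Cd68 window had an RNA-Pol2 summit, and 42 IgG against 404 RNA-Pol2 reads in the EedcKO pair. This window (chr11:69665153-69667152) overlaps that of Gm24029. It lies downstream of the Eif4a1 window (chr11:69671423-69673422, 159 and 8 reads) on the same strand. Whether polymerase from Eif4a1 adds to the Cd68 reads was not tested. Among the defining markers, Pecam1 held 19 and 26 reads, Csf1r 34 and 30 and Gata1 37 and 28. Sox10 held 76 and 54, above the median of 54 RNA-Pol2 reads over protein-coding genes but below its IgG after scaling. Other markers were above IgG: Klf1 (erythroid) held 85 and 33 reads (0.53, interval -0.04 to 1.18). Col1a1 (mesenchyme) held 66 and 21 (0.80, 0.11 to 1.62). Ratios were above 0 for 3 of 16 endothelial, 5 of 15 microglia and macrophage and 3 of 14 erythroid markers. They were for 7 of 16 mesenchyme and pericyte, 7 of 11 astrocyte and 4 of 13 oligodendrocyte markers. For mesenchyme and pericyte markers the interval lay wholly above equality in 3 and wholly below it in 4. With the EedcKO IgG as control the medians of the 6 marker lists were from -0.33 to -0.16, the latter for astrocytes, and at most 1 member of each was 2-fold above. The receptor families of the nose and the keratins had lower medians still. Of 1467 olfactory and vomeronasal receptor genes, 18 were above and 448 below (median -0.67), and of 112 keratin genes 1 was above and 18 below (-0.52). Many receptor genes are close copies of each other, so their counts are uncertain.

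The presence of H3K27ac at a promoter went with a higher RNA-Pol2 ratio. Among 4064 protein-coding genes whose window held an H3K27ac summit without H3K27me3, the median ratio was 0.97, 48.7% were at least 2-fold above IgG and 32.5% had an RNA-Pol2 summit. Among 549 genes with both summits the median was 1.24 and 61.0% were above. Among 2140 genes with an H3K27me3 summit alone the median was 0.12 and 11.5% were above, close to the 11.6% among 14477 genes with neither. Windows with neither can still hold many H3K27me3 reads. Of 39 Hox genes, 4 had an H3K27me3 summit and none an H3K27ac summit, at a list median of 1384 H3K27me3 reads. Of the 4242 genes above IgG, 2315 (54.6%) had an H3K27ac summit, and these were 50.2% of the genes with one. The remaining 45.4% had none in the deposited list. Against the EedcKO IgG, 17.9% of genes with an H3K27ac summit and 4.78% of those without were 2-fold above.

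Lineage genes with an H3K27me3 summit were 2-fold above IgG at a share near that of all protein-coding genes. Of 310 genes in the forebrain lists and the lists of other lineages, 94 had an H3K27me3 summit. Of these 94, 18 (19.1%) were at least 2-fold above IgG, against 33 of the 216 without one (15.3%). Of all protein-coding genes 20% were. A summit is 1 position for each peak, so a window without one can hold many H3K27me3 reads. Of 39 Hox genes 4 had a summit, at a list median of 1384 H3K27me3 reads. Of 36 midbrain, hindbrain and spinal cord regulators 9 had one, at 1408.5. The median over all windows was 26 reads. These groups therefore do not separate marked from unmarked genes. The 18 included Nr2f1, Pou3f1, Sox2, Sox1 (110 and 12 reads) and Fgf18, all forebrain genes, and Ttf1 from the endoderm list. The ratios of Pou3f1 and Ttf1 to the EedcKO IgG were -0.17 and -0.25. The tissue is a mixture of cells, so both marks at a promoter may sit in different cells or in the same ones, which cannot be told apart here. A promoter with a second start within 1 kb upstream on the other strand had a higher ratio: the median was 0.83 over 2263 such genes, with 41.5% above IgG, and 0.05 over the other 18967, with 17.4%. Both starts of such a pair put reads into the window.

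**Figure D4:**
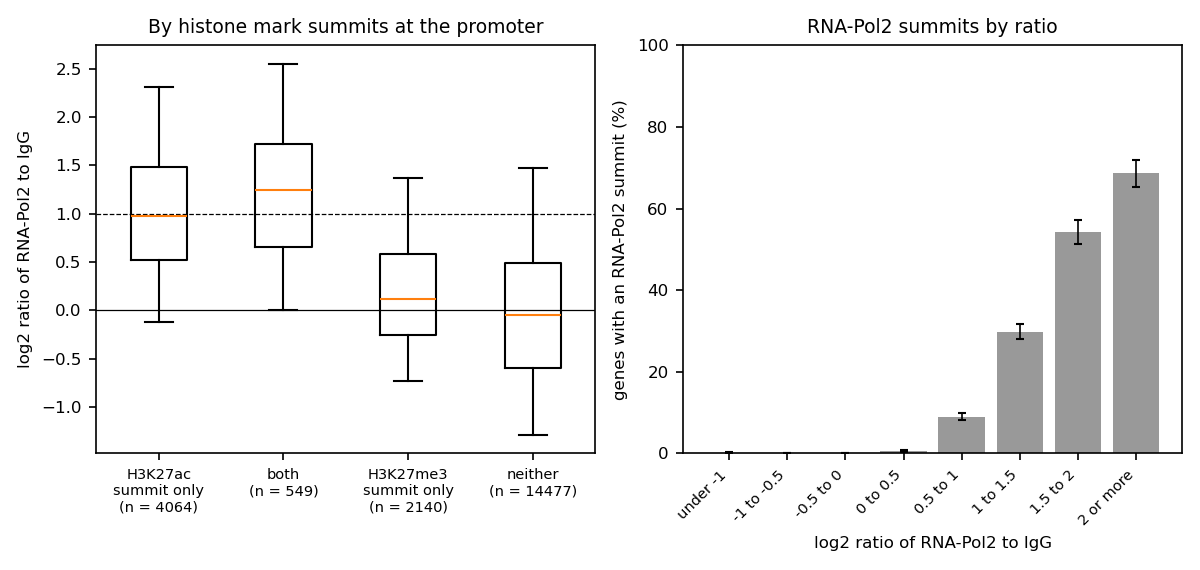
Left, log2 ratio of RNA-Pol2 to IgG of protein-coding genes by the histone mark summits in their window (line: median, box: quartiles, whiskers: 5th and 95th percentiles, dashed line: 2-fold); right, percent of protein-coding genes with an RNA-Pol2 summit in the window by ratio, with exact 95% intervals for counting error. Medians are 0.97 and 1.24 with an H3K27ac summit, alone or beside H3K27me3, and 0.12 and -0.05 without, and the share with a summit climbs from 0.464% at ratios of 0 to 0.5 to 68.7% at ratios of 2 or more.

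The summit list gave a narrower view of the same library. It held 3716 RNA-Pol2 summits, each with the authors' score, of which 2057 (55.4%) lay in a promoter window; 2192 protein-coding genes (10.3%) had one. None of the 8768 protein-coding genes with a ratio below 0 had a summit. The share was 8.96% at ratios from 0.5 to 1, 29.9% from 1 to 1.5, 54.3% from 1.5 to 2 and 68.7% from 2 on. Both measures come from the same reads. Within windows the summit lay at a median of 84 bases downstream of the start, with quartiles of -113 and 230 bases, and 63.7% of summits were downstream. The median for H3K27ac was 122 bases. The highest scores, in −log10 units, were 68.5 for the summits next to Gm42418 and Phykpl, 67.4 for Polg2, 60.5 for Egr1 and 54.5 for Tmem39b, a membrane protein gene. The lowest score in the list was 2.00 and the median 5.71.

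**Figure D5:**
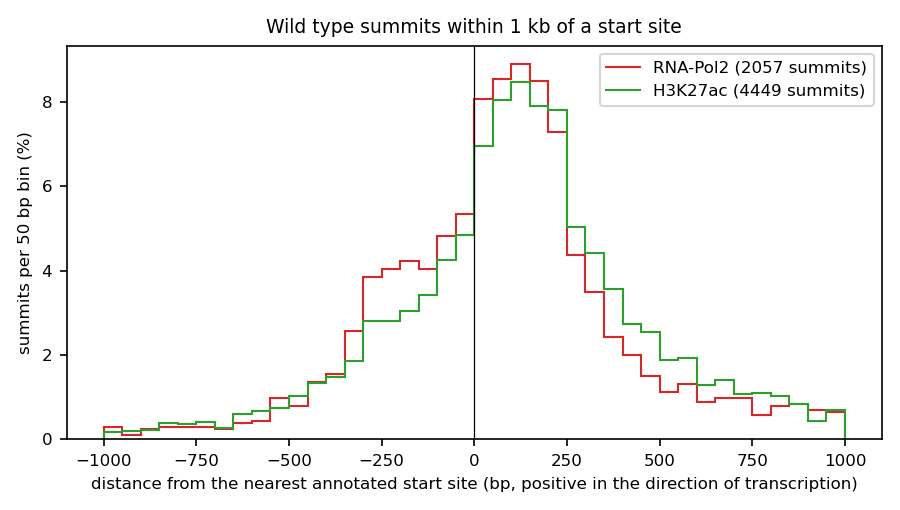
Distance of the wild type RNA-Pol2 and H3K27ac summits in promoter windows from the nearest annotated start, in bins of 50 bases, as percent of the 2057 and 4449 summits. Both have their highest bins just downstream of the start, and RNA-Pol2 has the larger share upstream (medians of 84 and 122 bases downstream).

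Of the RNA-Pol2 summits in windows, 64.4% had an H3K27ac summit within 500 bases, and of the 1659 outside windows 18.1%. In the other direction 19.9% of the 8229 H3K27ac summits had an RNA-Pol2 summit that near. The list of the library labelled EedcKO RNA-Pol2 is much longer, and 74.8% of the wild type summits had one of its 25930 summits within 500 bases, which is 10.7% of that list. Of the summits outside windows, 73.4% lay in the body of a protein-coding gene and 13.0% within 1 kb of a 3′ end. Ptprs, a receptor phosphatase of growing axons, held 18 of them and its own promoter 94 RNA-Pol2 and 42 IgG reads (0.34). Kdm4b, a histone demethylase, held 12 (154 and 24 reads), Col23a1 9, and Ahdc1 and Brsk2 7 each.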

How the data were processed

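The submitters' processing notes name mm10, ChIPseeker 1.22.1, deepTools 3.4.0, Bowtie2 2.4.1 and MACS2 2.2.7.1, and read filters were not given. In the deposited promoter tables the values are whole numbers of reads, so they were used as counts, although the authors named the tables for RPKM; their totals differ between libraries. The deposited summit lists give 1 position for each peak of a library and a −log10 score, of p-values or q-values, which the lists do not say.

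Counts were scaled by each library's total over all windows. For a symbol with several windows, the one with the higher sum of both RPM was used. Gene types, 3′ ends and promoter sequences came from RefSeq (assembly GRCm38.p6), in which 38986 of 55276 symbols matched. Named genes were the 15 protein-coding genes with the highest lower bound of the exact 95% interval of the ratio and the 10 with the highest RNA-Pol2 RPM, among named genes with 1 window per cluster of overlapping windows. Named too were the 10 non-coding or unnamed windows with the highest lower bound, the 3 highest and 2 lowest members of each list, the 2 highest of each list of cell type markers or gene families, and the 10 lineage genes with the lowest upper bound. Other genes were chosen after their values were seen. Where a library had 0 reads, 3 were allowed. The members, lists and rules were chosen with earlier results of these data known. Python 3.11.15, pandas 2.3.3 and scipy 1.17.1 were used, and the scripts were tested on simulated data. Alternatives were pseudocounts of 0.25 and 4 RPM, scaling to the same median, a minimum of 20 reads, 1 window per cluster and the EedcKO IgG as control. Some genes that the rules name are not reported here. The Eed, input and other EedcKO libraries were not used.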

Additional observations from a re-analysis of the deposited data

Results flagged for a closer look

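At 2 named promoters the ratio of RNA-Pol2 to IgG was at least 2-fold in opposite directions in both genotypes, and neither difference was tested. Krt10, an epidermal keratin, had a log2 ratio of 1.49 in wild type, from 34 RNA-Pol2 and 6 IgG reads, and -1.20 in EedcKO, from 16 and 17 reads. Vmn2r91, a vomeronasal receptor, had 2.97 in wild type, from 17 and 0 reads, and -2.61 in EedcKO, from 0 and 8 reads. All 8 counts are at most 34 reads.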

How the results depend on the processing

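The control library moved the results most. With the EedcKO IgG in place of the wild type IgG, 2814 windows were at least 2-fold above and 3523 below, and 1622 protein-coding genes were above. The medians of the neurogenic list (-0.023) and of the midbrain, hindbrain and spinal cord list (-0.025) changed sign, as did Gata6 (-0.061), Insm1 (-0.11), Polr2a (-0.047), Pou3f1 (-0.17), Ttf1 (-0.25) and Zfp42 (0.44). The ventral forebrain (-0.02) and astrocyte (-0.16) medians, near 0 before, were also negative. Of 162 named genes, 59 stayed within their error and 97 moved beyond it without a change of sign. The cause was not tested. A pseudocount of 4 RPM, which shrinks ratios of low counts by its construction, gave 3685 windows below. Of the windows past 2-fold, 45.8% were above IgG, against 55.5% with 4 RPM and 59.9% with both libraries at the same median, where the microglia median was 0.01. Counts of windows and genes above IgG were within 1.5 times of the reported ones under the other pseudocount, the scaling, the minimum of 20 reads and 1 window per cluster. Of the summits, 35.3% lay within 250 bases of a start, and 68.1% of those in the upper part of the score, at or over its median, lay in a promoter window. No paired analysis was possible because each genotype and target has 1 library. With a median of 25 IgG reads a window, depth limits single genes, and with 1 library of each kind no biological spread can be given.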

Other observations

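The 6 bins of 1 Mb with the most RNA-Pol2 summits held 266 of 3716 (7.16%). The highest count was 65 summits on chromosome 17 between 56 and 57 Mb (mm10), where the median over the 926 bins with a summit was 2. That bin holds Kdm4b and Ptprs, the genes with the most summits in their bodies, and the divergent pair Safb (197 RNA-Pol2 and 8 IgG reads) and Safb2 (192 and 8). It held 149 summits in the library labelled EedcKO RNA-Pol2 and 35 H3K27ac summits. The bin has 49 annotated windows, and summits may lie outside them. The next bins were on chromosome 10, between 80 and 81 Mb with 55 summits and between 81 and 82 Mb with 39. Of the H3K27me3 summits, 19 lay in the bin of chromosome 17 and 62 in the first bin of chromosome 10. The bins were found after the summits were seen, and no test was made.

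Non-coding and unnamed windows with the highest lower bounds mostly shared their reads with a gene. Of 10 such windows 7 overlapped a protein-coding window, among them Gm26590, which lies across from Supt16 and held 109 RNA-Pol2 reads against 0. The exceptions included 2210016F16Rik, with 278 and 11 reads and an RNA-Pol2 summit, and 1700113A16Rik, with 122 and 5. The wild type Eed promoter held 89 and 20 reads, a log2 ratio of 1.28. Ezh2, the PRC2 methyltransferase gene, had 93 and 32 reads (0.70).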
